A study of Rattus norvegicus with 8 samples.

Results

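The genes of hyaluronan and versican biology were examined in outflow veins of rat arteriovenous fistulas (AVFs). They were 8 genes matched by name among the 32623 rat genes counted in each library: the hyaluronan synthases Has1 and Has2, the hyaluronidases Hyal1 and Hyal2, the hyaluronan-binding proteoglycans Vcan (versican) and Acan (aggrecan), the hyaluronan-binding protein Tnfaip6, and the hyaluronan receptor Cd44. Each name matched 1 gene. All 8 had a base mean of at least 100 and were tested with the 11682 genes that passed this filter, the base mean being the average over libraries of the counts after division by size factors.

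Hyaluronan is a long, unsulfated sugar chain made at the plasma membrane by the Has enzymes. Versican and aggrecan bind it through their N-terminal domains and carry chondroitin sulfate chains, so that large, water-rich aggregates form between cells. Hyaluronidases cut the chain, Tnfaip6 (also called TSG-6) transfers protein chains onto it during inflammation, and Cd44 anchors it to the cell surface. In the vessel wall, versican and hyaluronan are known as components of the loose matrix of neointima.

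Sprague Dawley rats of both sexes received an AVF between the epigastric vein and the femoral artery, and a bilayer PLA and PLGA nanofiber scaffold was wrapped around the vein at surgery. In 4 rats (3 females and 1 male) the scaffold was loaded with β-aminopropionitrile (BAPN), which blocks lysyl oxidases, the enzymes that link collagen and elastin chains to each other. In the other 4 rats (2 females and 2 males) it was a vehicle scaffold without BAPN. All veins were collected at 21 days, each vein gave 1 library, and both groups carried the fistula and a scaffold. Unoperated veins were not analysed here. The comparison asks whether local lysyl oxidase inhibition was accompanied by other levels of these transcripts.

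The libraries held 45039451 to 52241007 counted reads in the BAPN group and 19548203 to 22442050 in the vehicle group. Depth therefore separated the groups completely, with the lowest BAPN total 2.01 times the highest vehicle total, and the 2 cannot be told apart as group differences. Expression is given as CPM, the reads of a gene scaled to a common library size after TMM normalization, and a group is given as the mean ± SD of its 4 rats (n = 4). Log2 fold changes are those of BAPN over vehicle from edgeR, with a standard error (SE) from limma-voom. Read counts were not divided by transcript length, so levels are compared between rats and not between genes. Markers of smooth muscle and endothelium were detected in every library. In bulk tissue, fewer cells of a type and less RNA per cell cannot be told apart.

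The proximal promoters of 4 of these genes are shown here because their RNA either differed between the groups (Hyal1), did not although the gene lies next to it (Hyal2), or was high in the same rats (Vcan and Acan). Each sequence runs 5′ to 3′ on the strand of the gene, over 300 bases that lie mostly upstream of a RefSeq transcription start in build GRCr8. Capitals mark matches on either strand to the TATA box (TATAAA), the CCAAT box (CCAAT), the GC box (GGGCGG) and the AP-1 motif (TGANTCA). The positions are chr8:117129061-117129360 (plus strand) for Hyal1, chr8:117121552-117121851 (plus strand) for Hyal2, chr2:22595906-22596205 (minus strand) for Vcan, where RefSeq also has a second start nearby, and chr1:142390701-142391000 (plus strand) for Acan.
Hyal1: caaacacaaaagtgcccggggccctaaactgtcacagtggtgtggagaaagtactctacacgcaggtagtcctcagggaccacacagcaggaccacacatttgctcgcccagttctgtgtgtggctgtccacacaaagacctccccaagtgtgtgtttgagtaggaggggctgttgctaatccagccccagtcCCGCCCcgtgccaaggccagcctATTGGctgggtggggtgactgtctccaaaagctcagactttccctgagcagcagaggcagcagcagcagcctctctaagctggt
Hyal2: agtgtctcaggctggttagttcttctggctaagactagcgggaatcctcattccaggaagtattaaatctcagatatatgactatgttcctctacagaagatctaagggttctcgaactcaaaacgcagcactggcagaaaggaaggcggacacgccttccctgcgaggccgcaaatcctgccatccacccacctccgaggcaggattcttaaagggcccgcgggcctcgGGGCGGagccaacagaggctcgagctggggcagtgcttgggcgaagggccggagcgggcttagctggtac
Vcan: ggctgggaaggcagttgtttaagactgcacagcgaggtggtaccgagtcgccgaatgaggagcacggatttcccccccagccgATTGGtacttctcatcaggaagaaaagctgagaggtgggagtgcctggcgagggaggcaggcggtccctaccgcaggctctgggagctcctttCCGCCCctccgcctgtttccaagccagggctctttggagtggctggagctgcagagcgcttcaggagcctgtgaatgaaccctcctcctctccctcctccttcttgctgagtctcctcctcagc
Acan: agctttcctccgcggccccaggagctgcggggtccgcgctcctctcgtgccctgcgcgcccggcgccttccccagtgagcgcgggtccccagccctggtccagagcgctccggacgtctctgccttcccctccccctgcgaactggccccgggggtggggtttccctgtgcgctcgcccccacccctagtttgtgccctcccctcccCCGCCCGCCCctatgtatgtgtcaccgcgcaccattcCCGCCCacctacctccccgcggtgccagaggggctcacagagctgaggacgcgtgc
The Hyal1 window held 1 CCAAT box and 1 GC box, the Hyal2 window 1 GC box, the Vcan window 1 CCAAT box and 1 GC box, and the Acan window 3 GC boxes, of which a pair overlap. None of the 4 windows held the TATA box or the AP-1 letters. The window of the other Vcan start, not shown, held 1 GC box and 0 CCAAT boxes. Among all 33469 promoter windows in the table, 33.1% held a GC box, 37.5% a CCAAT box, 14.2% a TATA box and 7.33% the AP-1 motif. These matches describe the letters of the windows and were not measured in the veins.

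Of the 8 genes, 1 differed between the groups. Hyal1 was lower in BAPN-treated veins at an FDR below 0.05 in edgeR, and the other 7 did not pass. Among all tested genes 16.8% were called, 9.25% as lower and 7.5% as higher with BAPN, so that 1 called gene in 8 (12.5%) was not above the general share. The groups did not overlap for Hyal1 only, whereas they did not overlap for 24.7% of all tested genes. The median log2 fold change of the 8 genes was -0.38 against 0.02 over all tested genes. DESeq2 also called 1 of the 8, again Hyal1, against 27.4% of all genes, and gave no p for Acan.

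**Figure D1:**
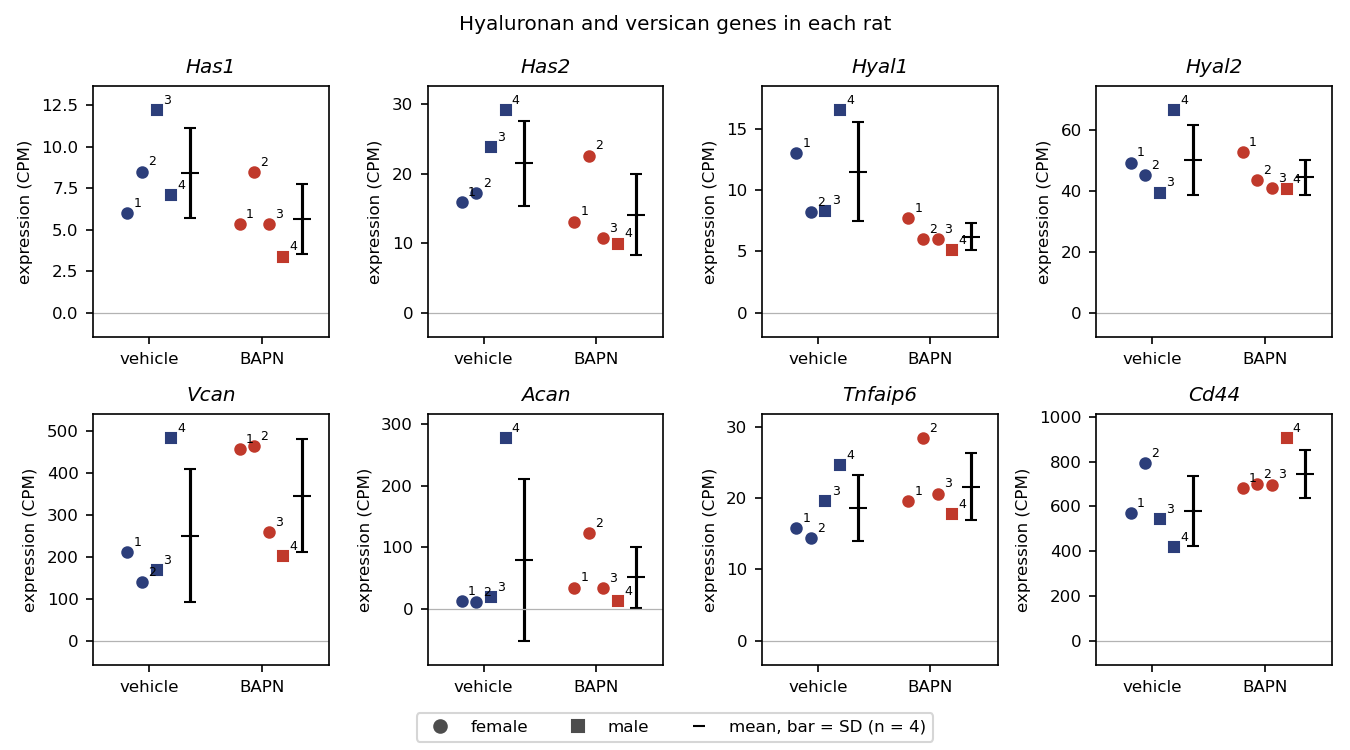
CPM (y axis, linear, with a gray line at 0) of the 8 genes in each rat, vehicle in blue and BAPN in red, with circles for females, squares for males and the rat's replicate number beside each point. Black bars are the mean ± SD of 4 rats, and the lower bar of Acan in the vehicle group passes below 0 because 1 rat was at 277 CPM.

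Among the enzymes that make hyaluronan, Has1 was at 5.35, 8.48, 5.35 and 3.38 CPM in BAPN 1 to 4 and at 5.99, 8.50, 12.2 and 7.07 CPM in Vehicle 1 to 4. BAPN 4 was lowest and Vehicle 3 highest, and BAPN 2 lay among the vehicle rats. The means were 5.64 ± 2.11 and 8.45 ± 2.73 CPM, a log2 fold change of -0.58 (SE 0.33, FDR 0.222 in edgeR). Has2, the synthase of the embryonic heart cushions, was at 13.1, 22.6, 10.7 and 9.94 CPM in BAPN 1 to 4 and at 15.9, 17.2, 23.8 and 29.1 CPM in Vehicle 1 to 4. BAPN 1, 3 and 4 were below every vehicle rat, and BAPN 2 was above the lower pair of them. Has2 had a log2 fold change of -0.61 (SE 0.30, FDR 0.172), with a limma-voom 95% interval from -1.31 to 0.03. Without BAPN 2 the log2 fold change of Has2 was -0.95 and edgeR called it (FDR 0.0449). This was its only call among the 8 fits that left out 1 rat, with FDRs up to 0.364. Sex as a covariate gave -0.54 (FDR 0.315), and females alone -0.095 (FDR 0.879). The Has2 gene overlaps another RefSeq locus, so that some of its reads could be shared.

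Hyal1, a lysosomal hyaluronidase, was at 7.74, 6.0, 6.02 and 5.09 CPM in BAPN 1 to 4 and at 13.0, 8.20, 8.33 and 16.5 CPM in Vehicle 1 to 4. All BAPN rats lay below all vehicle rats, but BAPN 1 and Vehicle 2 were close. These levels rest on at least 166 reads in each library. The group means were 6.21 ± 1.10 and 11.5 ± 4.01 CPM, which is 1.85-fold lower with BAPN. The log2 fold change was -0.89 (SE 0.26, FDR 0.0482 in edgeR and 0.00935 in DESeq2; exact two-sided permutation p = 0.0286, the smallest that 4 against 4 allow). The call stood at the threshold. It was lost with sex as a covariate (log2 fold change -0.90, FDR 0.0928), and of the 8 fits that left out 1 rat it held only without Vehicle 2 or Vehicle 3, with log2 fold changes from -1.02 to -0.66 over those fits. The largest FDR among them was 0.119 (without Vehicle 1). With the reads drawn down to equal library totals, the FDR of Hyal1 was 0.044.

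In RefSeq, the Hyal1 gene overlaps its neighbors Hyal3 and Naa80, and how reads in the overlap were assigned is not given in the sources used here. Hyal3, another hyaluronidase-like gene, had a log2 fold change of -0.005 (SE 0.24, FDR 0.989). Naa80, an N-terminal acetyltransferase that acts on actin, was lower with BAPN (log2 fold change -0.42, SE 0.11, FDR 0.0356). The share of the Hyal1 reads that came from the overlap was not tested.

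Hyal2, the GPI-anchored hyaluronidase that cuts high-molecular-weight hyaluronan at the cell surface, was at 52.8, 43.5, 40.9 and 40.6 CPM in BAPN 1 to 4 and at 49.3, 45.3, 39.5 and 66.5 CPM in Vehicle 1 to 4. Apart from Vehicle 4 the groups covered similar ranges. The log2 fold change of Hyal2 was -0.18 (SE 0.17, FDR 0.478), with a 95% interval from -0.52 to 0.22. The difference between Hyal1 and Hyal2 in their response was not tested.

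**Figure D2:**
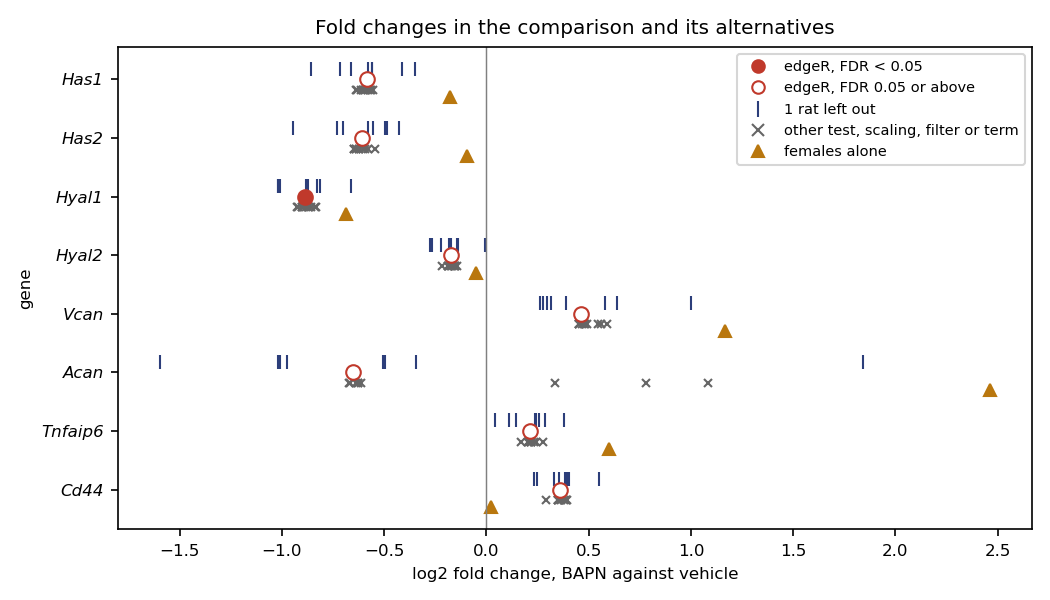
Log2 fold change of BAPN against vehicle (x axis) for each gene (y axis), with the value of edgeR as a circle, filled for Hyal1 (FDR 0.0482), ticks for the 8 fits with 1 rat left out, crosses for other tests, scalings, filters or terms, and a triangle for females alone. Hyal1 stayed below 0 in all of them, and Acan lay on both sides of 0, from -1.60 to 2.47.

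Versican was at 458, 465, 259 and 202 CPM in BAPN 1 to 4 and at 211, 139, 168 and 484 CPM in Vehicle 1 to 4. Vehicle 4 was the highest of the 8 rats and the other vehicle rats were low. Vcan means were 345.8 ± 136 and 251 ± 158 CPM, a log2 fold change of 0.46 (SE 0.43, FDR 0.448). The 95% interval of limma-voom ran from -0.42 to 1.51. Without Vehicle 4 the log2 fold change of Vcan was 1.00 (FDR 0.0728). Among females, the 3 BAPN rats were above both vehicle rats, with means of 394 and 175 CPM and a log2 fold change of 1.17 (FDR 0.107 in edgeR).

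Aggrecan, best known from cartilage, varied most. Acan was at 34.4, 123, 33.4 and 12.4 CPM in BAPN 1 to 4 and at 12.5, 10.6, 19.4 and 277 CPM in Vehicle 1 to 4. A single rat, Vehicle 4, held most of the vehicle signal, and the highest rat was 26.2 times the lowest. The means were 50.8 ± 49.2 and 79.8 ± 131 CPM, and the log2 fold change of -0.65 (SE 1.00, FDR 0.691) turned to 1.84 without Vehicle 4 (FDR 0.109). Sex as a covariate also turned it, to 1.09 (FDR 0.691). In females Acan was higher in every BAPN rat than in either vehicle rat, with a log2 fold change of 2.47 (FDR 0.101 in edgeR).

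Cartilage markers were looked at beside Acan. Of 6 chondrocyte markers, 2 passed the filter, and Matn1 had no read in any library, which allows up to 0.148 CPM (3 reads) in the shallowest one. Col2a1 and Col9a1, the cartilage collagens, did not exceed 1.22 and 0.651 CPM in any rat, and they and Col11a2 (at most 3.51 CPM) were not highest in Vehicle 4. In Vehicle 4 Comp reached 190 CPM, with 6.85 to 43.8 elsewhere, and Sox9 reached 37.9 CPM, with 3.93 to 22.2 elsewhere. Both are also expressed outside cartilage. The rat with the highest Acan was thus also highest for Comp, Sox9 and the summed fibroblast markers (55200 CPM, against 13500 to 32000 CPM in the others). Col1a1 made up 48900 CPM of that sum. Of the 6 fibroblast markers 4 were highest in this rat (Col1a1, Lum, Dcn and Dpt), while Pdgfra (271 CPM) was below Vehicle 1 (295 CPM) and Pi16 was the lowest of the 8 rats (88.3 CPM). Their part in the Acan level was not tested.

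Tnfaip6 was at 19.6, 28.4, 20.6 and 17.7 CPM in BAPN 1 to 4 and at 15.8, 14.4, 19.6 and 24.6 CPM in Vehicle 1 to 4. The groups overlapped, and the log2 fold change was 0.22 (SE 0.21, FDR 0.481) with a 95% interval from -0.26 to 0.70. It was the most even of the binding proteins, with a highest value 1.98 times the lowest.

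The receptor Cd44 was at 681, 700, 698 and 906 CPM in BAPN 1 to 4 and at 571, 793, 542 and 417 CPM in Vehicle 1 to 4. Vehicle 2 lay above 3 of the BAPN rats, and the means were 746 ± 107 and 581 ± 156 CPM. The log2 fold change was 0.36 (SE 0.21, FDR 0.237, exact two-sided permutation p = 0.114). Without Vehicle 2 it was 0.55 (FDR 0.0662), and among females alone 0.02.

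Cd44 is carried by leukocytes as well as by cells of the vessel wall. The summed level of 10 macrophage markers was 27900 to 41300 CPM with BAPN and 6030 to 22800 CPM with vehicle, without overlap, and most of it came from Lyz2. Lyz2 itself was not called by edgeR (FDR 0.0722, and 0.00765 in DESeq2). Of the 9 markers tested 1 was called, Aif1, against 16.8% of all genes. Positive log2 fold changes were found for 8 and a negative one for 1, Cd163 (-0.25). Vehicle 4, with the lowest macrophage sum, also had the lowest Cd44. It was the lowest rat for 4 of the 9 tested markers (Lyz2, Cd68, Csf1r and Aif1) but not for the other 5, such as C1qa (434 CPM) and Adgre1 (124 CPM), for which it was the highest vehicle rat. Marco had no read in any library, which allows up to the same 0.148 CPM. Tested lymphoid markers had positive log2 fold changes too. Of 3 tested B and plasma cell markers 2 were called higher, Mzb1 (4.59 on the log2 scale, SE 3.67) and Cd79b (2.55, SE 1.31). The groups overlapped for both, and their limma-voom 95% intervals ran from -4.86 to 11.6 and from -0.62 to 5.26. Of 5 T cell markers 0 were called (median 1.02), against 16.8% of all genes. BAPN 4, with the highest Cd44, had the lowest B and plasma cell sum of the 8 rats, at 6.66 CPM. The part of leukocyte content in the Cd44 level was not tested.

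**Figure D3:**
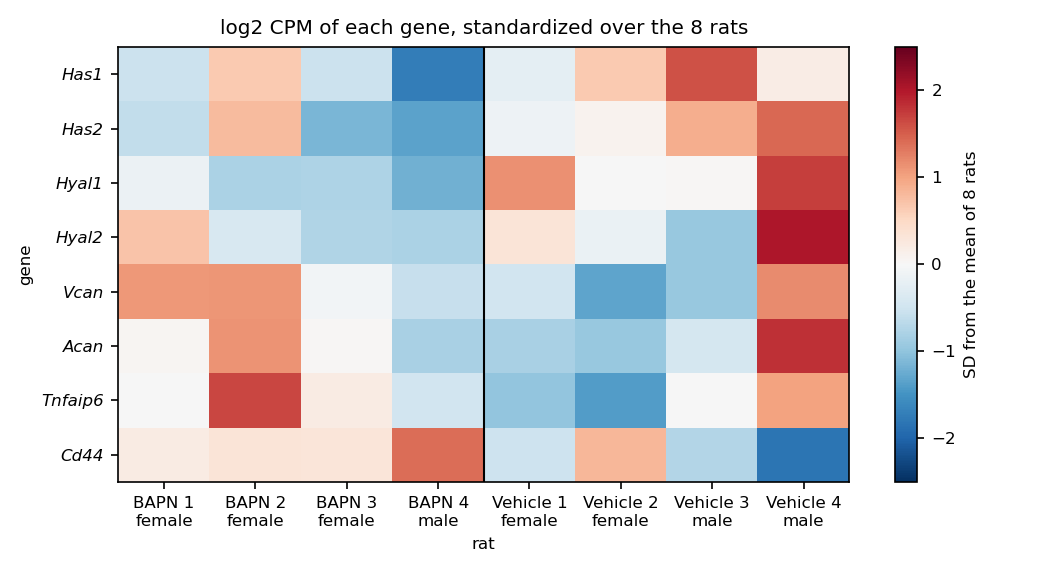
Log2 CPM of each gene (rows) in each rat (columns, BAPN left and vehicle right of the line), colored by the distance from the gene's mean over 8 rats in SD units. Vehicle 4 was the highest rat for 5 genes and the lowest for Cd44, and BAPN 4 was the lowest for 3 genes and the highest for Cd44.

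Seen by rat rather than by gene, the extremes were unevenly spread. Vehicle 4 held the highest value for Has2, Hyal1, Hyal2, Vcan and Acan, and the lowest for Cd44. BAPN 4 held the lowest for Has1, Has2 and Hyal1 and the highest for Cd44, and Vehicle 2 the lowest for Vcan, Acan and Tnfaip6. Both BAPN 4 and Vehicle 4 were males. Males and females were therefore compared in their response to BAPN by an interaction term, added after seeing the data, with 1 BAPN male and 2 vehicle males. On the log2 scale the term (males minus females) was -1.335 for Has1, -1.317 for Has2, -0.6 for Hyal1 and -0.334 for Hyal2. It was -1.861 for Vcan, -6.044 for Acan, -0.918 for Tnfaip6 and 0.895 for Cd44. With 1 BAPN male, a response of males cannot be told apart from the levels of this rat.

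The genes whose log2 CPM followed Cd44 and Vcan most closely over the 8 libraries were listed as a description. For Cd44 they were Rnf149 (Pearson r 0.99), Slc15a3, Meis3 and Brcc3 (0.97 for the last). For Vcan they were Ddah1 (r 0.98), Mgat2, Abcf2, Gars and Poglut1 (0.94 for the last). None of these 9 genes was called, with FDRs from 0.236 to 0.605. The values share libraries and their depth, and the genes were picked as the highest of 11682.

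Other genes of the pathway were taken from lists by role. Of 80 genes named, 79 were found, 60 were tested and 7 were called (11.7%, against 16.8% of all genes), 1 higher and 6 lower with BAPN. The split was 2 higher and 2 lower with sex as a covariate, and likewise without Vehicle 4. DESeq2 called 15 of the 60, against 27.4% of all genes. The median log2 fold change was -0.08. The called genes were spread over 5 of 8 lists.

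**Figure D4:**
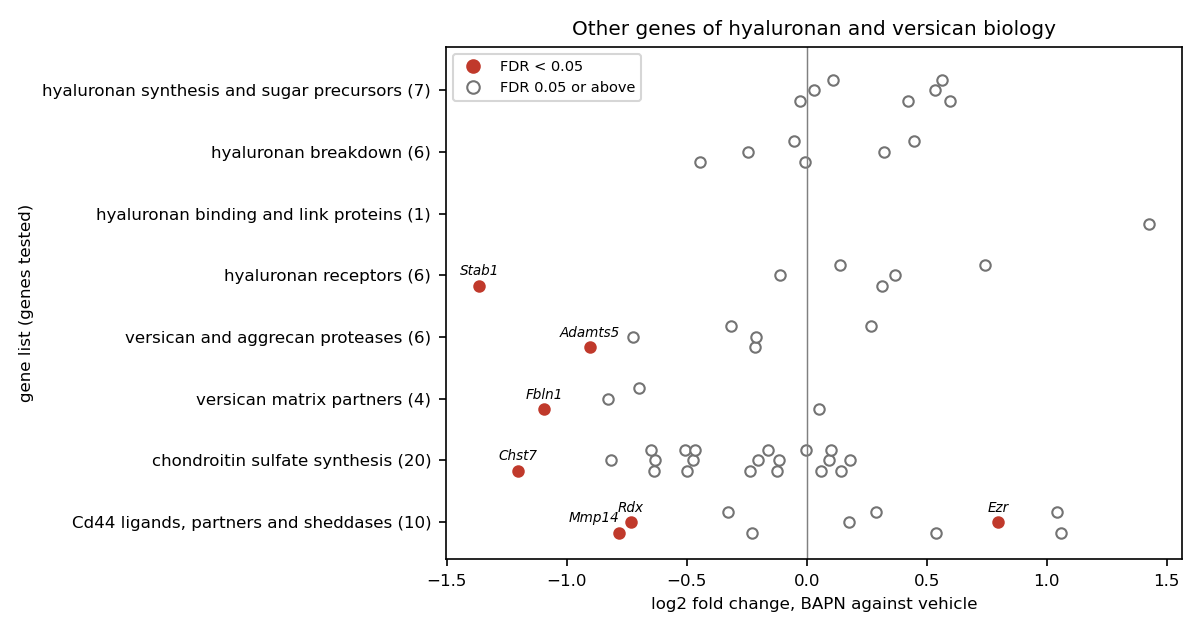
Log2 fold change of BAPN against vehicle (x axis) for 60 tested genes in 8 lists (y axis, number tested in brackets), filled red for an FDR below 0.05. 6 of the 7 named points lie below 0, with Stab1 the lowest at -1.36, and Ezr lies above 0 at 0.80.

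Precursor supply gave no called gene. Of 7 tested genes for hyaluronan synthesis and its UDP-sugars, 0 passed in edgeR (16.8% of all genes) and 2 in DESeq2 (27.4%). An unadjusted edgeR p under 0.05 was found for 4 (35.8% of all genes), and 6 had positive log2 fold changes (median 0.42). The lowest p was that of Ugdh, the UDP-glucose dehydrogenase (log2 fold change 0.57, SE 0.18, FDR 0.0555). Gfpt1, the most abundant of them by reads, had a log2 fold change of 0.11 (FDR 0.724). The third synthase, Has3, lay just under the filter (base mean 97.6) and was picked out after its values were seen. Has3 was at 1.85, 1.78, 0.992 and 1.46 CPM in BAPN 1 to 4 and at 5.81, 2.32, 5.35 and 5.06 CPM in Vehicle 1 to 4. All BAPN rats were below all vehicle rats (exact two-sided permutation p = 0.0286), and with edgeR's own filter on low counts its log2 fold change was -1.59 (FDR 0.0257). All 3 synthases thus had negative log2 fold changes, of which those of Has1 and Has2 did not pass and were -0.18 (FDR 0.765) and -0.095 (FDR 0.879) in females alone.

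Of 6 further genes of hyaluronan breakdown, such as the lysosomal hexosaminidase Hexa, 0 were called by edgeR (16.8% of all genes) or DESeq2 (27.4%). An unadjusted edgeR p under 0.05 was found for 0 of them (35.8% of all genes), and log2 fold changes ran from -0.45 to 0.45. Hexa was at 198 ± 16.9 and 206 ± 19.2 CPM. Most link proteins and inter-alpha-inhibitor heavy chains, the partners of Tnfaip6, were too low to test, and Ptx3, which helps to crosslink hyaluronan, was the only one of 13 tested (log2 fold change 1.42, SE 0.78, FDR 0.129). BAPN 1 was the highest rat for Ptx3, at 45.3 CPM, and without it the log2 fold change was 0.78 (FDR 0.344). Itih3 lay just under the filter (base mean 96.3) and was also noticed after the fact. It was at 1.57 ± 0.501 and 4.51 ± 1.56 CPM without overlap, with an FDR of 0.0315 under edgeR's own filter.

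Among the other receptors, the scavenger receptor Stab1 was at 79.7, 64.6, 43.4 and 41.2 CPM in BAPN 1 to 4 and at 190, 112, 133 and 154 CPM in Vehicle 1 to 4. No BAPN rat reached the lowest vehicle rat, and the 2.57-fold lower level had a log2 fold change of -1.36 (SE 0.24, FDR 0.0127). Stab1 was called in all 8 fits with 1 rat left out (FDR up to 0.0394), though not among females alone (FDR 0.0919). Stab1 marks sinusoidal and lymphatic endothelium and some macrophages. Endothelial markers were also lower with BAPN, with 2 of 5 called against 16.8% of all genes. Their summed level was 201 to 390 CPM against 477 to 1200 CPM. Macrophage sums were higher, mostly through Lyz2 (FDR 0.0722 in edgeR), and 1 of 9 tested macrophage markers was called. The part of these cells in the Stab1 level was not tested. Of 4 lymphatic endothelial markers 1 was called, against 16.8% of all genes. It was the transcription factor gene Prox1, lower with BAPN and without overlap (log2 fold change -2.05, SE 0.37, FDR 0.0119). Flt4 had a log2 fold change of -0.65 (FDR 0.118), and the summed lymphatic level overlapped, at 351 to 448 CPM with BAPN and 338 to 675 CPM with vehicle. Lyve1, the lymphatic hyaluronan receptor, had a log2 fold change of 0.14 (SE 0.21, FDR 0.671).

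Of 6 tested proteases that cut versican and aggrecan 1 was called, against 16.8% of all genes. This was Adamts5, lower with BAPN (31.9 ± 8.99 against 59.7 ± 15.8 CPM, log2 fold change -0.90, SE 0.25, FDR 0.0387). The groups overlapped at Vehicle 3, at 37.5 CPM, and the call of Adamts5 was kept only without BAPN 1 or Vehicle 3 when 1 rat was left out. It was lost with sex as a covariate (FDR 0.0619) and in females alone (FDR 0.0894). Adamts15, the most abundant by reads, had a log2 fold change of -0.32 (FDR 0.536). Among 4 partners of versican in the matrix, the elastic fiber protein Fbln1 was at 141 ± 41.6 with BAPN and 302 ± 67.4 CPM with vehicle (log2 fold change -1.09, SE 0.23, FDR 0.0194), and Fbn1 at 1200 ± 383 and 1940 ± 845 CPM (log2 fold change -0.70, FDR 0.173). Fbln1 lost its call only without BAPN 3 (FDR 0.0557) or Vehicle 1 (FDR 0.0583) among the fits that left out 1 rat. Smooth muscle markers were also lower with BAPN, with 4 of 6 called against 16.8% of all genes. Among these were Myh11 (-1.60 on the log2 scale) and Lmod1 (-1.30). The smooth muscle sums overlapped, at 1440 to 3990 CPM with BAPN and 2970 to 5620 CPM with vehicle. Of 6 fibroblast markers 5 had negative log2 fold changes. Of the 6, 0 were called by edgeR (16.8% of all genes) and 3 by DESeq2 (27.4% of all genes). The fibroblast sums overlapped, at 13500 to 20300 and 15200 to 55200 CPM. The part of these cell types in the Fbln1 and Adamts5 levels was not tested.

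Of 20 tested genes for making chondroitin sulfate chains, 1 was called (5%, against 16.8% of all genes). Negative log2 fold changes were found for 15 of them, against 5654 of all 11682 tested genes, and the median was -0.22. The called gene was the sulfotransferase Chst7, at 3.84 ± 0.704 with BAPN and 8.83 ± 3.66 CPM with vehicle (log2 fold change -1.20, SE 0.32, FDR 0.0356). It kept its call only without Vehicle 2 when 1 rat was left out. A covariate for sex ended the call of Chst7 (FDR 0.102), and its log2 fold change in females alone was -0.52 (FDR 0.323). Chpf, a chondroitin polymerizing factor and the most abundant by reads, had a log2 fold change of -0.50 (FDR 0.159).

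Of 10 tested ligands, partners and sheddases of Cd44, 3 were called, against 16.8% of all genes. The ezrin gene Ezr, which links Cd44 to actin, was at 167, 152, 173 and 151 CPM in BAPN 1 to 4 and at 97.2, 126, 79.1 and 66.9 CPM in Vehicle 1 to 4. No vehicle rat reached the lowest BAPN rat, and the log2 fold change was 0.80 (SE 0.20, FDR 0.0245). Its relative Rdx (radixin) was lower with BAPN, at 36.8 ± 6.75 against 61.1 ± 13.6 CPM (log2 fold change -0.73, SE 0.19, FDR 0.0323), while the third member, Msn (moesin), had a log2 fold change of 0.18 (FDR 0.438). Mmp14, a membrane protease that sheds Cd44, was lower with BAPN, at 617 ± 94.8 against 1060 ± 312 CPM (log2 fold change -0.78, SE 0.22, FDR 0.0432). With 1 rat left out, Ezr lost its call in 3 of 8 fits (FDR up to 0.0633), Rdx in 6 (FDR up to 0.0886) and Mmp14 in 7 (FDR up to 0.109). Sex as a covariate also ended the calls of Rdx (FDR 0.0693) and Mmp14 (FDR 0.0942). The Cd44 ligand Spp1 (osteopontin) was at 10600 ± 3370 and 5090 ± 2860 CPM, with overlap (log2 fold change 1.06, SE 0.52, FDR 0.126 in edgeR and 0.043 in DESeq2). In females alone the log2 fold change of Spp1 was 0.285 (FDR 0.542 in edgeR).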

How the data were processed

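RNA was measured in 8 outflow veins, 1 library per rat. Total RNA was depleted of ribosomal RNA, made into stranded libraries and sequenced. The submitters' processing notes name bcl2fastq (2.17), Trim Galore and STAR. The counting tool, strand setting and genome build are not given in the sources used here. The authors deposited unnormalized whole-number read counts per Ensembl gene with gene names.

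Groups came from the sample titles. Genes whose base mean (DESeq2 1.42.0 size factors) reached 100, the study's own limit, were compared by edgeR 4.0.16 (TMM, quasi-likelihood F test, no covariates; R 4.3.3), with Benjamini-Hochberg FDR over all 11682 genes and calls at an FDR below 0.05. The study named a DESeq plug-in, and DESeq2 was the alternative. Standard errors and 95% intervals are from limma 3.58.1 (voom), whose own estimate they surround. Log2 CPM used a prior count of 2. The steps were tested on simulated counts. Libraries of a group differed by more than counting noise (chi-square per degree of freedom 68.6 to 320.8), and each was counted once. The labels do not give a batch.

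Named genes were the 8 genes, the called and the most abundant gene of each pathway list, and the 5 genes most like Cd44 and Vcan, of which 1 is not reported here. The genes and lists were chosen with earlier results of these data known. Has3, Itih3, Ugdh, Hyal3, Lyve1, Msn, Naa80 and the cell markers given singly were named after their values were seen. Overlaps of genes come from RefSeq GRCr8, which may be another build than the authors used, and 7 of 8 genes had a promoter there. Itih5, Pecam1 and Myh1 were not analysed here. Alternatives were other tests, scalings and filters, sex as a covariate, females alone, a replicate block, equal library totals and each rat left out.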

Additional observations from a re-analysis of the deposited data

Results flagged for a closer look

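In BAPN 4, the male of that group, Cd44 stood at 906 CPM, apart from the other BAPN rats at 681 to 700 CPM. The gap to the nearest rat was 0.902 of the group's log2 range, above Dixon's 95% critical value. Of 16 groups of 4 checked (8 genes in both treatments), this was the only one, and chance flags about 5% of groups.

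For Acan and Tnfaip6, every BAPN female was above every vehicle female while the BAPN male was below both vehicle males. The BAPN effect in males minus that in females, as an edgeR interaction term, was -6.04 on the log2 scale for Acan and -0.92 for Tnfaip6. Only 1 male received BAPN, and its spread was assumed to be that of the other rats. A response of males therefore cannot be told apart from the levels of this rat.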

How the results depend on the processing

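The library depth that separates the groups, the lone BAPN male and 4 rats per group limit these comparisons.

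Number of the 8 genes called: 1 in the comparison as reported, 0 with limma-voom, upper quartile factors, edgeR's filter on low counts, no filter, the replicate block, females alone or a covariate for sex, and 0 to 1 with 1 rat left out (0 without BAPN 1, BAPN 3, BAPN 4, Vehicle 1 or Vehicle 4; Has2 in place of Hyal1 without BAPN 2). Hyal1 had an FDR between 0.00935 and 0.206 and a negative log2 fold change in all 19 alternatives. Its FDR was 0.0561 with limma-voom, 0.0503 with upper quartile factors and 0.0684 with no filter. Pathway genes called numbered 7, against 15 with DESeq2, 3 with the replicate block, 4 with sex as a covariate, 0 in females alone and 1 to 9 with 1 rat left out (1 without BAPN 3 or Vehicle 1, 3 without BAPN 4, 4 without Vehicle 3 or Vehicle 4). All genes called numbered 1957, against 3202 with DESeq2, 556 with the replicate block, 930 with sex as a covariate, 89 in females alone and 397 to 2215 with 1 rat left out. With library totals only, 504 genes were called higher and 1161 lower, against 876 and 1081.

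Reversed values were those of Acan with limma-voom (0.34), the replicate block (0.78), sex as a covariate (1.09), females alone (2.47) and without Vehicle 4 (1.84, with -1.60 as the lowest of the fits that left out 1 rat), of Gfpt1 in females alone (-0.13) and without Vehicle 3 (-0.065, with 0.207 as the highest of those fits), and of Adamts15 in females alone (0.34). The cause was not tested. Same-numbered rats correlated between -0.27 and 0.27 in their deviations from the group means, and not every rat correlated best with its own number, so the number was not taken as a pairing. The block ended the calls of Ezr (FDR 0.0554), Rdx (0.065), Mmp14 (0.0936) and Chst7 (0.115). DESeq2 gave no p for Acan.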
